A study of Rattus norvegicus with 4 samples.

Results

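The genes described here encode the proteins that detect RNA in the cytoplasm and in endosomes, together with the adaptor and the RNA editor tied to that detection. The set of 8 genes was defined by gene symbol as Rigi, Ifih1, Dhx58, Eif2ak2, Tlr3, Tlr7, Mavs and Adar. All 8 of them were measured, each by 1 probe set, among 14497 genes with a probe set of 1 symbol on a whole-transcript Affymetrix array. In the array annotation 7 were found under these symbols. The gene of RIG-I carries the symbol Rig1 there and was found through its gene identifier, for which RefSeq lists the synonym Ddx58.

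Rat hippocampal neurons were taken from embryos, grown in primary culture and transduced with shRNA, a hairpin RNA that the cell processes into a short interfering RNA. In one group of 2 cultures the shRNA was directed against Gld2, and in the other group of 2 cultures it was a scrambled control shRNA, so all 4 cultures carried an shRNA; they are called knockdown and control cultures here. Gld2 (gene symbol Tent2) is a cytoplasmic poly(A) polymerase, and the stated purpose was to profile poly(A) RNA after its knockdown. The labels give neither the number of hairpin sequences nor the preparations behind the 2 cultures of a group, and a p-value therefore measures only the spread of these cultures, which may be technical. Cultures without an shRNA were not analysed here. Primary cultures hold cells other than neurons, and glial markers were measured along with neuronal ones, as given further on.

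The targeted transcript was lower where the labels place the knockdown, with Tent2 at 9.50 and 9.35 against 10.73 and 10.67, a log2 difference, Gld2 shRNA minus scrambled shRNA, of -1.28 (95% confidence interval -1.47 to -1.10, adjusted p = 0.000753, limma, Benjamini-Hochberg over all genes). Over all genes 245 were called higher and 349 lower, and with arrays centred on their medians 558 and 1367, although the array medians differed only from 8.41 to 8.48. Before labelling, RNA was captured on poly(U) Sepharose and released thermally, so a change in the amount of a transcript and a change in its recovery through the tail cannot be told apart. The number of arrays limits the precision.

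RIG-I, MDA5 (the product of Ifih1) and LGP2 (the product of Dhx58) are related helicases that bind double-stranded or uncapped RNA in the cytoplasm. RIG-I and MDA5 signal through the adaptor MAVS on mitochondria to kinases that switch on type I interferon genes, and LGP2, which has no signalling domain of its own, tunes them. PKR (the product of Eif2ak2) is activated by double-stranded RNA and phosphorylates the initiation factor eIF2 alpha, which lowers translation. TLR3 and TLR7 detect double-stranded and single-stranded RNA inside endosomes and do not use MAVS. ADAR converts adenosine to inosine in double-stranded RNA, which makes the cell's own RNA less visible to MDA5. Several of these genes are themselves induced by interferon, through a promoter element called the interferon-stimulated response element (ISRE).

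To show the promoter letters of members that did and did not differ between the groups, RefSeq promoter sequences of rat build GRCr8 were matched by gene identifier. They were found for 5 of the 8 members, Ifih1, Eif2ak2, Tlr3, Tlr7 and Mavs. Each window runs from 250 bases before to 50 bases after the annotated gene start. An ISRE core, written GAAANNGAAA, was searched on both strands over these 300 bases, and so was the STAT-binding GAS motif, written TTCNNNGAA, which reads the same on both strands. The ISRE core was found once in Ifih1, as GAAACAGAAA from position -59 to -50, and once in Eif2ak2, as GAAAACGAAA from position -16 to -7, counting the gene start as 0. The ISRE core was not found in the windows of Tlr3, Tlr7 and Mavs. The GAS motif was found in none of the 5 windows, those of Ifih1 and Eif2ak2 included. Of 27457 promoters in the table, 3.77% held the ISRE core and 8.68% the GAS motif. A match describes letters and is not a measured binding site. The 250 bases before the start are printed 5′ to 3′ on the gene's strand, with the ISRE core in capitals, for both genes with a match and for Mavs, whose groups overlapped. Ifih1 lies at chr3:67683969-67684218 on the minus strand, Eif2ak2 at chr6:21940904-21941153 on the plus strand and Mavs at chr3:138904562-138904811 on the plus strand.
Ifih1: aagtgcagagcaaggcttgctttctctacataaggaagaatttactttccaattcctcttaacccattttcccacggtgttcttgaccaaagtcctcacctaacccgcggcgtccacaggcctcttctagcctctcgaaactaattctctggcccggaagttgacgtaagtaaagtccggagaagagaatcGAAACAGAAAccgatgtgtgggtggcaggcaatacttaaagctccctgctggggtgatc
Eif2ak2: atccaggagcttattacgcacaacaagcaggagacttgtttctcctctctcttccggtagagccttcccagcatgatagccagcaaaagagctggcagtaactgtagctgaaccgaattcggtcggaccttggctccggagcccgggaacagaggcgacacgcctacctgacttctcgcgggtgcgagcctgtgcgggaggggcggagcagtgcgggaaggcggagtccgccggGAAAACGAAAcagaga
Mavs: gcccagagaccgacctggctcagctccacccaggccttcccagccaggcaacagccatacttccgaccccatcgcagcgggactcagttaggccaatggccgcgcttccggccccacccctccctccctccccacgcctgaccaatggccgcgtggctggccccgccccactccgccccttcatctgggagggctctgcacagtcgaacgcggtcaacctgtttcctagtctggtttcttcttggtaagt

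The transcripts of all 3 cytoplasmic helicases and of PKR were higher in the knockdown cultures, by 2.87-fold to 7.03-fold, while the groups overlapped for Mavs. Adar, Tlr3 and Tlr7 lay slightly higher without passing the test. By limma with Benjamini-Hochberg adjustment over all 14497 genes, 4 of the 8 members were called higher at an adjusted p under 0.05 and 0 were called lower, against 1.69% of all genes called higher and 2.41% called lower. At an unadjusted p under 0.05, 7 members were higher and 0 lower, against 9.24% and 16.2% of all genes. The median log2 difference of the members, Gld2 shRNA minus scrambled shRNA, was 1.03, and that of all genes was -0.02. The levels are log2 values made by the authors with RMA, which removes background signal, puts all arrays on one distribution and combines the probes of each gene. With 2 cultures against 2, an exact permutation test of a single gene cannot go below a two-sided p of 0.333, so the tests rest on limma, which borrows the spread from all genes.

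**Figure D1:**
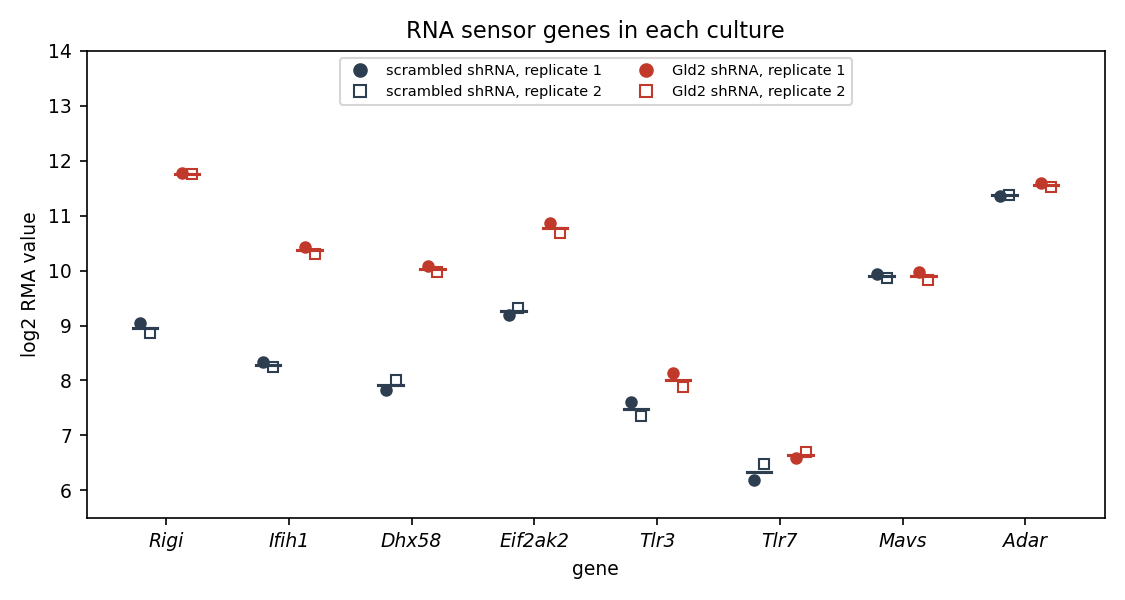
Log2 RMA value (vertical axis) of the 8 RNA sensor genes in each of the 4 cultures, with scrambled shRNA in dark blue, Gld2 shRNA in red, replicate 1 filled, replicate 2 open, and the group mean as a bar. For Rigi the Gld2 shRNA cultures lie at 11.78 and 11.75 and the scrambled shRNA cultures at 9.04 and 8.87, whereas the points of Mavs lie among each other.

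Rigi, the sensor of RNA with a free triphosphate end, changed most. Its level was 11.78 and 11.75 in the knockdown cultures and 9.04 and 8.87 in the control cultures. Both knockdown cultures lay far above both controls, with a gap of 2.71 between the lowest knockdown and the highest control value, and the knockdown cultures almost coincided. The knockdown mean was 11.77 ± 0.0211 (SD, n = 2) against 8.95 ± 0.121 (SD, n = 2) in the controls, which is a 7.03-fold rise. The log2 difference was 2.81 with a standard error of 0.0773, a 95% confidence interval from 2.62 to 3.0 and an adjusted p of 3.24e-05 (limma, Benjamini-Hochberg). By size of the difference Rigi ranked 18 among the 14497 genes.

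Ifih1, which encodes MDA5, the sensor of long double-stranded RNA, had levels of 10.43 and 10.30 in the knockdown cultures and 8.34 and 8.24 in the control cultures. The groups were separated by 1.96, and in each group the cultures lay close together. The log2 difference was 2.08 (standard error 0.0751, 95% confidence interval 1.89 to 2.26), a 4.21-fold rise with an adjusted p of 9.84e-05 by limma. It ranked 33.

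Dhx58, which encodes LGP2, had levels of 10.09 and 9.97 in the knockdown cultures and 7.82 and 8.01 in the control cultures. The controls spread a little more than the knockdown cultures, and the gap between the groups was again 1.96. The log2 difference was 2.12 (standard error 0.0891, 95% confidence interval 1.90 to 2.33), a 4.34-fold rise with an adjusted p of 0.000180 by limma. It ranked 32, directly before Ifih1, and the confidence intervals of these helicase genes overlapped each other, while that of Rigi lay above both.

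Eif2ak2, which encodes PKR, rose less than the helicases. Its level was 10.86 and 10.69 in the knockdown cultures and 9.19 and 9.33 in the control cultures. The groups did not overlap, with a gap of 1.36. The log2 difference was 1.52 (standard error 0.0875, 95% confidence interval 1.31 to 1.73), a 2.87-fold rise with an adjusted p of 0.000696 by limma, and the interval lay below those of the 3 helicase genes.

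Adar, the editor of double-stranded RNA, was already bright in the controls. Its level was 11.59 and 11.52 in the knockdown cultures and 11.36 and 11.38 in the control cultures. The groups did not overlap, which held in the higher direction for 24% of all genes. The log2 difference of 0.19 (standard error 0.0626, 95% confidence interval 0.03 to 0.34) did not pass, with an adjusted p of 0.143 by limma. It passed with a level-dependent prior variance (adjusted p = 0.0131) and with genes dimmer than the median dropped (adjusted p = 0.0382), over a range from 0.0131 to 0.520 in the alternatives. A single probe set covers the gene, so the interferon-inducible long form and the constitutive short form of ADAR are not separated.

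Tlr3, the endosomal receptor of double-stranded RNA, stood at 8.14 and 7.89 in the knockdown cultures and at 7.60 and 7.35 in the control cultures. The groups did not overlap, but within each group the cultures differed by 0.25, close to the gap of 0.28 between the groups. The log2 difference was 0.54 (standard error 0.120, 95% confidence interval 0.24 to 0.83), with an adjusted p of 0.0688 by limma, just short of the threshold. It passed with a level-dependent prior variance (adjusted p = 0.00639), with genes under percentile 25 of level dropped (adjusted p = 0.0342) and with arrays centred on their medians (adjusted p = 0.000207). With centring, the standard errors of the 8 members ran only from 0.0923 to 0.100, against 0.0626 to 0.120 without it. A call with centring therefore reflects little of the spread of a gene's own cultures. Over the alternatives the adjusted p ran from 0.000207 to 0.373.

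Tlr7, the endosomal receptor of single-stranded RNA, was the dimmest member. Its level was 6.60 and 6.71 in the knockdown cultures and 6.19 and 6.48 in the control cultures. The groups did not overlap, yet the gap between them was 0.12 while the controls differed from each other by 0.29. The log2 difference of 0.32 (standard error 0.108, 95% confidence interval 0.06 to 0.58) did not pass, with an adjusted p of 0.146 by limma. Among the alternatives run it passed only with arrays centred on their medians (adjusted p = 0.0297), where the limit given for Tlr3 holds too. Its mean level lay at percentile 9.77 of the genes measured, and without detection calls in the sources used here its signal cannot be set against background.

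Mavs, the adaptor shared by RIG-I and MDA5, had levels of 9.97 and 9.82 in the knockdown cultures and 9.94 and 9.87 in the control cultures. The groups overlapped fully, and the controls lay between the knockdown cultures. The log2 difference was -0.01 (standard error 0.0745, adjusted p = 0.966 by limma). The 95% confidence interval from -0.19 to 0.18 holds changes of that size in either direction and none as large as those of the helicases.

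**Figure D2:**
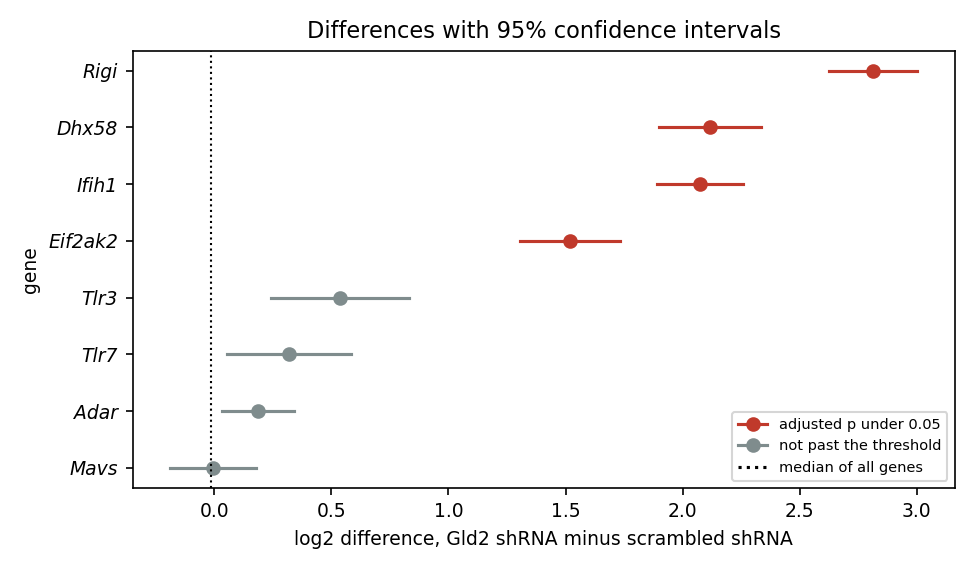
Log2 difference, Gld2 shRNA minus scrambled shRNA (horizontal axis), of each RNA sensor gene with its 95% confidence interval from limma, in red where the adjusted p was under 0.05 and in grey where it was not; the dotted line is the median of all genes, -0.02. The intervals of Rigi, Dhx58, Ifih1 and Eif2ak2 lie above 1.3, and that of Mavs runs from -0.19 to 0.18.

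By size of the difference the order was Rigi, Dhx58, Ifih1, Eif2ak2, Tlr3, Tlr7, Adar and Mavs. Neighbours in that order whose confidence intervals did not overlap were Rigi and Dhx58, Ifih1 and Eif2ak2, and Eif2ak2 and Tlr3. Dhx58 and Ifih1 differed by only 0.04 in their log2 differences, and the intervals of Tlr3, Tlr7 and Adar overlapped throughout. That of Mavs overlapped those of Tlr7 and Adar but not that of Tlr3. The differences between genes were not tested beyond this reading of the intervals.

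The 4 members past the threshold kept their calls whichever culture was left out. Without any one culture in turn, the log2 difference of Rigi ran from 2.73 to 2.90, that of Dhx58 from 2.02 to 2.21, that of Ifih1 from 2.01 to 2.14 and that of Eif2ak2 from 1.43 to 1.61. Each of them passed in all 4 such fits, the highest adjusted p being 0.0130, for Eif2ak2 (limma). Leaving out a culture leaves 1 in its group, which is then assumed to vary like the other group. Against the mean of the controls, Gld2 shRNA replicate 1 and replicate 2 stood at 2.83 and 2.80 for Rigi, 2.14 and 2.01 for Ifih1, 2.18 and 2.05 for Dhx58, and 1.61 and 1.43 for Eif2ak2. Replicate 1 was thus the higher of the knockdown cultures for all 4. Fitted without moderation across genes, the 4 were no longer called (adjusted p from 0.202 to 0.230, limma's linear model with Benjamini-Hochberg adjustment), a setting in which 1 of all genes was called.

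**Figure D3:**
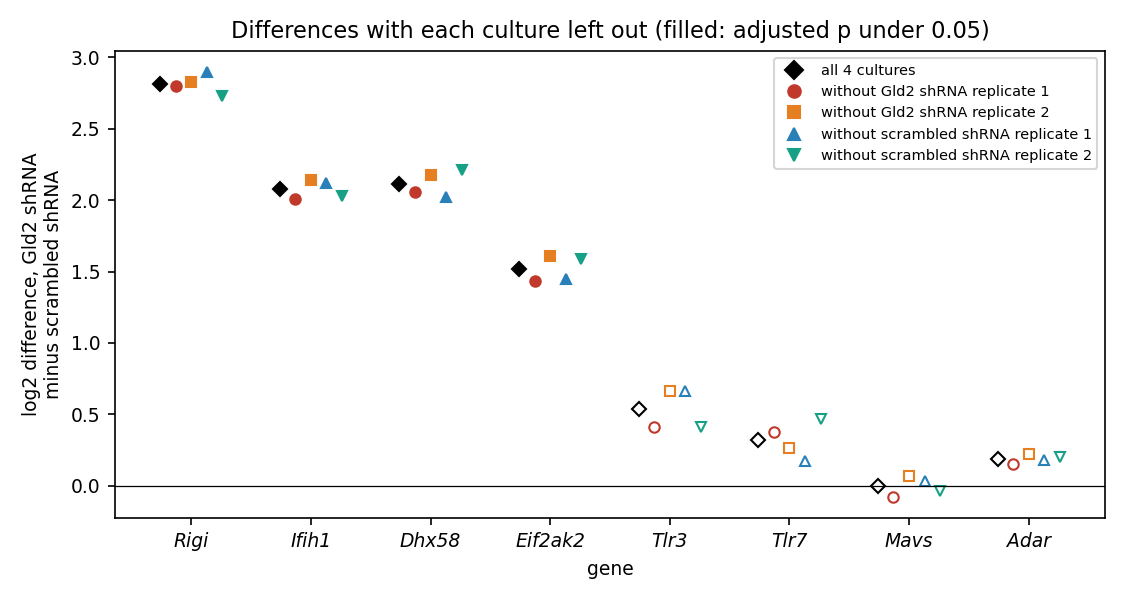
Log2 difference, Gld2 shRNA minus scrambled shRNA (vertical axis), of each RNA sensor gene with all 4 cultures (black diamonds) and with each culture left out in turn (coloured symbols), filled where the adjusted p was under 0.05 in that fit. Rigi stays between 2.73 and 2.90 and is filled throughout, whereas Tlr3, Tlr7, Mavs and Adar are open throughout.

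The genes whose pattern was most like that of a member changed at least 2-fold were found by the Euclidean distance between gene-centred log2 values over the 4 arrays. The nearest to Rigi were Irf7, a transcription factor of interferon genes (distance 0.143), and Gbp5, a guanylate-binding GTPase (0.161). Nearest to Ifih1 were Ifi44 (0.0784) and Slfn9 (0.107), and nearest to Dhx58 were Irgm (0.0632), of the immunity-related GTPases, and Ifi44l (0.124). Nearest to Eif2ak2 were Stat2, a transcription factor of the interferon response (0.106), and Lgals3bp, a secreted glycoprotein (0.107). With 4 arrays in 2 groups, this measure mostly finds genes with a difference of like size, such as Irf7 at 2.80 and Gbp5 at 2.81 beside Rigi at 2.81.

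Around the sensors, 95 measured genes in 6 pathway lists were read beside the same background. Of these, 9 were called higher and 2 lower, that is 9.47% higher against 1.69% of all genes and 2.11% lower against 2.41%. At this adjusted threshold the share of falls was near the background. At an unadjusted p under 0.05 by limma, 18 of the 95 were higher and 23 lower, both above the 9.24% and 16.2% of all genes. Their median log2 difference was -0.03. The relay between the sensors and interferon genes was mostly not called, as were most of all genes. Of 22 measured adaptors and kinases, 1 was higher, Irf7, with 0 lower at the threshold, beside 1.69% and 2.41% of all genes. At an unadjusted p under 0.05 by limma 3 were higher and 8 lower, where 9.24% and 16.2% of all genes were. Irf7, the interferon-inducible transcription factor at the end of the relay, had levels of 11.57 and 11.41 in the knockdown cultures against 8.70 and 8.68 in the control cultures (adjusted p = 2.75e-05 by limma). Its constitutive relative Irf3 had a log2 difference of -0.13 (95% confidence interval -0.32 to 0.07), the kinase Tbk1 of -0.17 and the MAVS-binding ligase Traf3 of -0.22. Myd88, the adaptor of TLR7, lay at 0.36 and did not pass (adjusted p = 0.0770 by limma). The falls nearest the threshold in this list were those of Irak1 (-0.33, adjusted p = 0.0515) and Traf6 (-0.30, adjusted p = 0.0524). Neither passed by limma.

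Cofactors and brakes of the RIG-I and MDA5 route gave 3 of 23 called higher and 0 lower, beside 1.69% and 2.41% of all genes. At an unadjusted p under 0.05 by limma 3 were higher and 3 lower, beside 9.24% and 16.2% of all genes. Trim25, a ubiquitin ligase that acts on RIG-I signalling, had levels of 11.22 and 11.11 in the knockdown cultures and 9.50 and 9.45 in the control cultures. The groups lay far apart, and the rise was 3.23-fold (log2 difference 1.69, adjusted p = 0.000159 by limma). Zc3hav1, the zinc-finger antiviral protein that binds viral RNA, rose by a log2 difference of 1.48 (adjusted p = 0.00771 by limma), although its cultures varied more within each group, at 10.19 and 9.82 against 8.67 and 8.38. Rnf125, a ligase that marks RIG-I for degradation, rose by 0.38 (adjusted p = 0.0418 by limma). Dhx9 and Rnf135, another helicase that binds double-stranded RNA and another ligase of RIG-I, lay at -0.07 and 0.05.

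Among 15 genes around PKR and eIF2 alpha, 0 were called higher and 1 lower, beside 1.69% and 2.41% of all genes. At an unadjusted p under 0.05 by limma 2 were higher and 7 lower, beside 9.24% and 16.2% of all genes. The median of the list was -0.11. The gene that fell was Eif2ak3, which encodes PERK, the eIF2 alpha kinase of the endoplasmic reticulum, with 9.75 and 9.66 against 10.11 and 10.09 (log2 difference -0.40, adjusted p = 0.0353 by limma). The other kinases of eIF2 alpha, Eif2ak1 and Eif2ak4, lay at 0.21 and -0.23 and did not pass. The PKR activator Prkra lay at -0.18 and the PKR-binding protein gene Tarbp2 at 0.04. Of the 4 eIF2 alpha kinase genes, Eif2ak2 was the one called higher.

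The list of ADAR relatives and of enzymes that process or remove nucleic acid held 15 measured genes. Of these 4 were called higher and 1 lower, beside 1.69% and 2.41% of all genes. At an unadjusted p under 0.05 by limma 5 were higher and 3 lower, beside 9.24% and 16.2% of all genes. Pnpt1, an exoribonuclease that helps to clear double-stranded RNA from mitochondria, rose 1.87-fold, from 9.57 and 9.44 in the controls to 10.46 and 10.37. Trex1, a DNA exonuclease of the cytoplasm, rose 1.66-fold, and Rnaset2, an endosomal and lysosomal ribonuclease, 1.65-fold. Zbp1, a sensor of left-handed double-stranded nucleic acid that shares a domain with ADAR, rose 1.44-fold, from 7.56 in both controls to 8.08 and 8.09. The adjusted p-values of these 4 ran from 0.00292 to 0.0112 by limma. Adarb2, a brain relative of Adar without known editing activity, fell by 0.34 on the log2 scale (adjusted p = 0.0497 by limma), and Adarb1, the other active editor, lay at -0.20 and did not pass.

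Other Toll-like receptors and their trafficking genes gave 0 of 15 called higher and 0 lower, beside 1.69% and 2.41% of all genes. At an unadjusted p under 0.05 by limma 4 were higher and 0 lower, beside 9.24% and 16.2% of all genes. Unc93b1, the chaperone that carries TLR3 and TLR7 to endosomes, had a log2 difference of 0.33 (adjusted p = 0.0736 by limma), and Tlr9, the endosomal DNA receptor, of 0.12. Of 6 measured sensors of DNA, 2 were called higher, Zbp1 and Aim2, with 0 lower, beside 1.69% and 2.41% of all genes. At an unadjusted p under 0.05 by limma 2 were higher and 2 lower, beside the same 9.24% and 16.2%. Aim2, a cytoplasmic DNA sensor, had mean levels of 6.90 and 6.32 in the knockdown and control cultures and rose 1.49-fold (adjusted p = 0.0281 by limma).

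Over all 6 lists, the genes called higher numbered 13 when Gld2 shRNA replicate 1 was left out and 9 when replicate 2 was, 13.7% and 9.47% of the list genes against 8.85% and 1.19% of all genes. Leaving out scrambled shRNA replicate 1 gave 4 and leaving out replicate 2 gave 2, which is 4.21% and 2.11% against 0.566% and 0.586% of all genes. The shares of list genes and of all genes were both highest without Gld2 shRNA replicate 1, but did not move in step in every fit. Irf7 and Trim25 passed in all 4 of these fits, Zc3hav1 and Pnpt1 in 3, Zbp1, Trex1, Rnaset2 and Aim2 in 2 and Rnf125 in 1. The falls of Eif2ak3 and Adarb2 passed only without Gld2 shRNA replicate 1, where 12 list genes, 12.6%, were called lower beside 9.70% of all genes. Without each of the other 3 cultures 0 list genes were lower, with at most 0.683% of all genes.

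**Figure D4:**
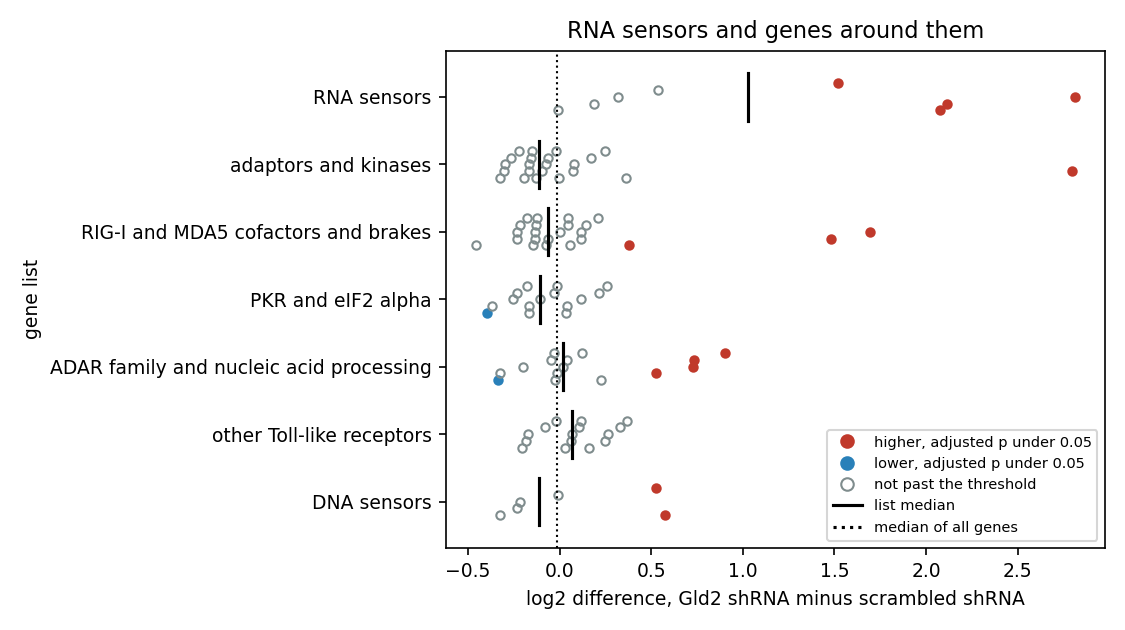
Log2 difference, Gld2 shRNA minus scrambled shRNA (horizontal axis), of the 8 RNA sensor genes and of the measured genes of each pathway list, in red where called higher, blue where called lower and open where not called; black bars are list medians and the dotted line is the median of all genes. The sensors have a median of 1.03, and the medians of the lists lie between -0.11 and 0.07 with single genes such as Irf7 at 2.80 and Trim25 at 1.69 far above them.

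Cell type markers were set beside these results, since microglia express Tlr7 and other Toll-like receptors and since, in whole cultures, more cells of a type and more RNA per cell cannot be told apart. Of 15 measured microglia markers, 1 was called higher, Fcer1g, with a log2 difference of 0.41, and 0 lower, beside 1.69% and 2.41% of all genes. Of these markers 14 lay above 0, with a median of 0.14, beside a median of -0.02 over all genes. Their summed linear level was 3551 and 3863 in the knockdown cultures and 3267 and 3370 in the control cultures. The defining markers Aif1, Itgam and Csf1r had log2 differences of 0.08, 0.14 and 0.12 and did not pass. At an unadjusted p under 0.05 by limma 4 of the 15 were higher, Fcer1g, Cx3cr1 (0.30), C1qb (0.24) and Tyrobp (0.21), and 0 lower. Of all genes 9.24% were higher and 16.2% lower at that threshold. The differences of the microglia markers ran from -0.02 to 0.41. Their part in the results was not tested.

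Of the other cell types, 1 of 10 astrocyte markers was called, Gja1, a gap junction gene, which fell by 0.39 on the log2 scale, and 1 of 9 oligodendrocyte lineage markers, Cnp, a myelin enzyme gene, which rose by 0.54. Over all genes 1.69% were called higher and 2.41% lower. At an unadjusted p under 0.05 by limma 0 astrocyte markers were higher and 2 lower, and 1 oligodendrocyte lineage marker was higher and 1 lower. The astrocyte markers Gfap, Aqp4 and Aldh1l1 differed by 0.10, 0.07 and 0.05, and the oligodendrocyte lineage markers Mbp, Olig1 and Sox10 by -0.29, 0.02 and 0.23. Of the oligodendrocyte lineage markers 7 lay above 0, with a median of 0.13. Their summed linear levels were 9360 and 8992 in the knockdown cultures against 8473 and 8311 in the controls. Olig1 (0.02) and Cnp (0.54) were the brightest of them and weigh most in that sum, so its rise rests mainly on Cnp. The part of these markers in the results was not tested. Of 12 neuron markers, 8 endothelial and mural markers, 7 fibroblast and meningeal markers and 5 dividing cell markers, 0 were called by limma, beside the same 1.69% and 2.41% of all genes. At an unadjusted p under 0.05 by limma 0 neuron markers were higher and 2 lower, Gad2 (-0.24) and Nefm (-0.19). The endothelial and mural set gave 2 higher and 1 lower, the fibroblast and meningeal set 1 and 0, and the dividing cell set 0 and 1. Of all genes 9.24% were higher and 16.2% lower at that threshold. Medians of these 4 sets lay between -0.05 and 0.03. The endothelial genes Pecam1, Cldn5 and Flt1 differed by 0.08, 0.29 and 0.22. Of the whole endothelial and mural set 4 lay above 0 and 4 below, with Pdgfrb lowest at -0.34. The fibroblast genes Col1a1, Col1a2 and Dcn differed by 0.05, 0.09 and -0.0032, and the dividing cell genes Top2a, Cdk1 and Ccnb1 by 0.02, 0.12 and -0.22. The neuronal markers Rbfox3, Map2 and Tubb3 were bright in all 4 cultures, between 11.93 and 12.95, and the astrocyte marker Gfap was bright in all 4 too, between 13.18 and 13.30.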

How the data were processed

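Poly(A) RNA of 4 rat hippocampal cultures was hybridised to Affymetrix whole-transcript arrays. Per the submitters' processing notes, the authors used RMA and affy. The log2 scale of the deposited values was read from their range of 3.23 to 14.3. RMA settings, tool versions and the annotation build were not given in the sources used here. Of 28826 probe sets, 15209 had 1 symbol, 306 several and 13311 none. Each gene was represented by its probe set of highest mean value, and no filter on low values was applied. The groups were compared by two-sided tests in limma 3.58.1 (lmFit, eBayes; R 4.3.3). Benjamini-Hochberg adjustment covered all 14497 genes at a threshold of 0.05, and 2 residual degrees of freedom were joined by 3.96 from the moderation. The test was tried on simulated data with variances drawn from its own fitted prior, which cannot show how it performs on these cultures.

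The members and lists were chosen with earlier results of these data known. Named were the members, Tent2, list genes past the threshold (at most 5 of a list), the first 3 measured markers of a cell type and the 2 genes nearest each member changed at least 2-fold. Other list genes were named after their values were seen. Of 122 list genes 95 were measured. Summed linear levels add the values of a list after removing the log2. The alternatives changed the prior variance, the filter, the scaling, the probe sets, the cultures used, the moderation and the call rule, and added a replicate block by the last digit of each sample's title. Removing a trend with gene length (lowess, from RefSeq spans of GRCr8) was chosen after the data had been seen.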

Additional observations from a re-analysis of the deposited data

How the results depend on the processing

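Of the 8 members, 4 were called higher as reported and 4 to 6 in the alternatives other than that without moderation, where 0 were; leaving out each culture gave 4 to 4. Without moderation, Rigi (2.81), Ifih1 (2.08), Dhx58 (2.12), Eif2ak2 (1.52) and Tent2 (-1.28) lost their calls at the same log2 differences. Tlr3 gained a call with a level-dependent prior variance, with genes under percentile 25 dropped (both 0.54) and with arrays centred on their medians (0.51). Tlr7 gained one with centring (0.30) and Adar with the prior variance or with genes dimmer than the median dropped (both 0.19). Mavs turned sign with cyclic loess (0.076) and ran from -0.0773 to 0.065 over the fits without 1 culture, never past the threshold. Removing the length trend changed no call of a member. Tlr7, Tlr3 and Dhx58 lay under the median level and Tlr7 under the 25th percentile too, so those filters give no value for them. For these changes the cause was not tested.

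The replicate block, by the final digit of the titles, gave 5 members higher, with Tlr3 (0.54) called at an adjusted p of 0.0187 by limma, and changed no other member's call. The digits do not establish a pairing: deviations of same-numbered cultures correlated at 0.14 over genes, with only 2 pairs. For Tlr3 the culture numbered 1 was the higher by 0.25 in both groups.

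Pathway list genes called higher numbered 9, and 16 with the prior variance, 0 without moderation and 2 to 13 without 1 culture. With the prior variance that is 16.8% of the list genes, beside 4.28% of all genes. Those called lower numbered 2, and 16 with the prior variance or with genes dimmer than the median dropped, 12 with genes under percentile 25 dropped, 11 with centring, 1 with cyclic loess, 0 with all probe sets, without moderation or by unadjusted p with 1.5-fold, and 0 to 12 without 1 culture. Calls over all genes moved too: those lower were 2.41% as reported, 11.1% with the prior variance, 17.8% and 8.73% with the filters at the median and percentile 25, and 9.43% with centring. The list shares were 2.11%, 16.8%, 22.5%, 13.5% and 11.6% in the same order.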

Other observations

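The ISRE core seen in the promoters of Ifih1 and Eif2ak2 was counted over the genes tested that had a RefSeq promoter. It was found in 3.41% of 11945 such promoters, in 26.6% of the 199 promoters of genes called higher and in 47.4% of the 57 promoters of genes at least 2-fold higher. The GAS motif was found in 7.58%, 13.6% and 19.3% of the same promoters. These shares are descriptions of genes chosen by their difference, and no test was made.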
